A study of Mus musculus with 2 samples.

Results

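The heat shock genes described here are 10 genes for molecular chaperones and their partners, taken by symbol from the 32285 genes counted in both libraries. *Hspa1a*, *Hspa1b*, *Dnajb1* and *Hsph1* are called the inducible genes here, and *Hsp90aa1* and *Hspb1* have a high basal level and are also inducible. *Hspa8*, *Hspd1*, *Hspe1* and *Dnaja1* are called the constitutive genes, for their level in resting cells. That label does not mean that they cannot be induced, and no response to heat was measured. They were followed across groups of sorted lung cells that were chosen by markers other than these genes. A cell was kept if it had at least 200 detected genes, at most 10% of its unique molecular identifiers (UMIs, counts of single mRNA molecules) from mitochondrial genes, and at least 3 UMIs from the markers of exactly 1 of 4 classes. The class markers were *Col1a2*, *Mfap4* and *Pdgfra* for stromal cells, *Cdh5*, *Pecam1* and *Egfl7* for endothelial cells, *Epcam*, *Cdh1* and *Lamp3* for epithelial cells, and *Ptprc*, *Laptm5* and *Cd52* for immune cells. Stromal cells with at least 3 UMIs of *Dcn* formed the adventitial group and those with 0 the alveolar group. Of 9669 barcodes in library 1 and 10050 in library 2, 8897 and 8233 cells met this rule.

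The study isolated the cells of the mouse lung that store retinoids, by sorting live cells whose retinoids fluoresce under ultraviolet light (UV-positive cells). All animals were male, wild type, of the C57BL/6 strain and 3 months old, so there was 1 condition. The cells were sequenced as 2 libraries prepared on 2 separate occasions. How many mice went into each library is not stated, and mice and occasion cannot be told apart. With the library as a block, the p-values measure how alike the group differences were in the 2 libraries, and nothing finer. The variance behind them is also borrowed in part from other genes.

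Cells answer heat and other stresses that unfold proteins by raising the transcription of chaperone genes, largely through heat shock factor 1, which binds repeats of the sequence GAA in their promoters. Inducible members of the family are low in resting cells and rise steeply within minutes to hours, while constitutive relatives fold new proteins at all times. Digestion and sorting of tissue are known, as background, to raise inducible heat shock genes and immediate early genes in many tissues.

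Library 1 held 48762735 UMIs and library 2 held 93970185. The cells that passed the filters on detected genes and mitochondrial UMIs numbered 9634 and 9988, with a median of 4480 and 7577.5 UMIs. The alveolar group was the largest, with 5805 cells in library 1 and 5545 in library 2. The adventitial group had 1017 and 998 cells, the epithelial group 930 and 101, the immune group 266 and 334, and the endothelial group 56 and 360. Of the cells that passed these 2 filters, epithelial cells made up 9.65% in library 1 and 1.01% in library 2, while endothelial cells made up 0.581% and 3.60%, so the composition of the libraries differed. The endothelial sum of library 1 held 119534 UMIs, against 1848091 in library 2, and is the shallowest of the 10 sums (5 groups in 2 libraries). The other sums ran from 877002 UMIs (immune, library 1) to 38784930 (alveolar, library 2). Median UMIs per cell were highest in epithelial cells, at 9340.5 and 13627, and lowest in endothelial cells, at 1899.5 and 4028.5. Adventitial cells had 6034 and 10655.5, against 3958 and 6545 in alveolar cells. The *Dcn* rule counts UMIs without scaling, so depth enters the split of these 2 groups, and its part in their differences was not tested. The median mitochondrial share was also highest in epithelial cells, at 2.93% and 4.63%, and the share was higher in library 2 in every group.

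The group labels were checked with 5 further markers per class that the rule did not use. The alveolar fibroblast list (*Tcf21*, *Inmt*, *Npnt*, *Limch1*, *Itga8*) summed to 12890.2 and 13360.4 CPM (UMIs of a gene scaled to a common total of UMIs per sum) in alveolar cells and to 8222 and 8988 in adventitial cells. The adventitial list (*Pi16*, *Dpt*, *Ly6a*, *Col14a1*, *Serpinf1*) summed to 1350 and 1092 CPM in adventitial cells and to 317 and 381 in alveolar cells, so each list was more abundant in its own group, while the adventitial group kept a high level of the alveolar list (*Inmt* at 5507 and 4887 CPM) and *Dpt* was in both groups (494 and 683 CPM in adventitial, 276 and 338 in alveolar cells). Endothelial cells summed to 3664 and 3444 CPM on the adventitial list, nearly all of it *Ly6a* (3622 and 3420), which capillary cells also express, with *Serpinf1* at 0 in both libraries. The endothelial list summed to 11762 and 10406 CPM in endothelial cells and to 21.4 and 24.8 in alveolar cells. The immune list summed to 25791 and 16310.0 CPM in immune cells against 29.3 and 26.4 in alveolar, 36.7 and 26.8 in adventitial, 1104 and 1231 in endothelial (most of it *Srgn*, 602 and 863) and 3803 and 2886 in epithelial cells (nearly all *Cd74*, 3801 and 2880). *Sftpc*, the surfactant protein C transcript, was at 245331 and 196165 CPM in epithelial cells. The same transcript was found at 493 and 121 CPM in alveolar, 250 and 97.1 in adventitial, 519 and 107 in endothelial and 479 and 116 in immune cells. *Inmt*, the most abundant alveolar marker at 7447 and 6873 CPM, was at 427 and 214 CPM in endothelial and 95.8 and 71.7 in immune cells. The part of such free or carried-over RNA in the heat shock values was not tested. The libraries shared 23 barcodes, all among cells that passed the 2 filters, and these were treated as different cells. No cell was removed by its doublet score, and the automatic threshold of Scrublet marked 5 cells in library 1 and 2 in library 2.

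*Hspa1a* and *Hspa1b*, which encode nearly the same HSP70 protein, lie on the minus strand of chromosome 17 at chr17:34969190-34972156 and chr17:34956436-34959238 (GRCm38), 9952 bases apart, each with 1 exon. Their counts can be told apart because the libraries read the 3' ends of transcripts: of all stretches of 90 bases in the *Hspa1a* transcript, 49.3% also occur in *Hspa1b*, but 0% of those in the last 500 bases do. Neither transcript shares a 90-base stretch with that of *Hspa8*. Their promoters are near copies, with 98.8% of the 250 bases before the start the same. The promoter table of RefSeq (build GRCm38.p6) held 8 of the 10 genes, all but *Hspa8* and *Hsp90aa1*. The heat shock element was searched as 2 inverted GAA units, in the forms GAANNTTC and TTCNNGAA, each of which reads the same on both strands and can overlap the other. The 8 genes have 13 promoters in the table, and a gene was counted if any of its promoters held the letters. By gene, GAANNTTC was found in 7.73% of 27025 symbols and in 6 of the 8, TTCNNGAA in 8.11% and in 3 of the 8, either form in 14.5% and in 7 of the 8, and a run of 3 units in 0.514% and in 2 of the 8. By promoter, GAANNTTC was found in 6.69% of 32851 and in 6 of the 13, TTCNNGAA in 7.17% and in 4, either form in 12.8% and in 8, and a run of 3 units in 0.466% and in 2. A stretch of 60 bases around the match is shown for each of the 7 genes, with the motif in capitals and the strand of the gene read 5′ to 3′. These windows were picked after the matches had been found, and a match is a description of the letters only. The stretches are chr17:34972227-34972286 (minus) for *Hspa1a*, chr17:34959309-34959368 (minus) for *Hspa1b*, chr5:149636337-149636396 (minus) for *Hsph1*, chr5:135887786-135887845 (plus) for *Hspb1*, chr1:55088038-55088097 for *Hspd1* (minus) and *Hspe1* (plus), and chr4:40722318-40722377 (plus) for *Dnaja1*.
Hspa1a: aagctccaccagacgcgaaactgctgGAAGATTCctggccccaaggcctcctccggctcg
Hspa1b: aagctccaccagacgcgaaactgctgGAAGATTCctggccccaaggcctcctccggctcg
Hsph1: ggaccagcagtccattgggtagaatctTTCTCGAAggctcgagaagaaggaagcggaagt
Hspb1: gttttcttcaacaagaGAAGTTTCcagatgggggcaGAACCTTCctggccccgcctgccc
Hspd1: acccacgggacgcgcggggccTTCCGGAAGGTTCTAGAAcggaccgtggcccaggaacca
Hspe1: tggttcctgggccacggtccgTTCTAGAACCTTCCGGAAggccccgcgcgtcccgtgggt
Dnaja1: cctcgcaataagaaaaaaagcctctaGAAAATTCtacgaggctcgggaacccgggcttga
The *Hspa1a* and *Hspa1b* stretches are identical. *Hspd1* and *Hspe1* share 1 stretch, read on opposite strands, since these genes overlap head to head by 112 bases, and theirs is the longest run of units shown. Each stretch comes from the promoter of its gene with the most matches, the one listed first where these were equal. These letters were not found in either of the 2 promoters of *Dnajb1*, in 1 of the 2 of *Hspd1* and in 2 of the 3 of *Dnaja1*.

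*Hspa1a*, the main inducible HSP70, was most abundant in adventitial cells, at 145 CPM in library 1 and 154 in library 2. Alveolar cells had 106 and 103 CPM. Endothelial cells had 33.5 and 11.9 CPM (4 and 22 UMIs), epithelial cells 19.4 and 21.2, and immune cells 21.7 and 10.5 (19 UMIs in each library). The 2 stromal groups thus stood apart from each other and from the other 3 groups, and those 3 overlapped. Mean levels were 149 ± 6.21 CPM (SD, n = 2 libraries) in adventitial, 105 ± 1.98 in alveolar, 22.7 ± 15.2 in endothelial, 20.3 ± 1.29 in epithelial and 16.1 ± 7.91 in immune cells, a range of 9.28-fold. Against alveolar cells, edgeR's quasi-likelihood test with Benjamini-Hochberg adjustment over 13326 genes put the log2 fold change at -3.05 ± 0.34 (SE) in endothelial cells (adjusted p 9.49e-07), with *Hspa1a* lower in 2 of 2 libraries. By the same edgeR test it was -1.85 ± 0.24 in epithelial cells (adjusted p 3.28e-06) and -2.56 ± 0.29 in immune cells (adjusted p 6.13e-07), lower in 2 of 2 libraries each. As folds these were 8.28, 3.61 and 5.88. The endothelial value rested mostly on library 2: it was -2.11 without library 2. The immune value was -3.17 without library 1. The adventitial difference of 0.54 ± 0.20 did not pass the edgeR test (adjusted p 0.126), although the ratio to alveolar cells was above 1 in both libraries, at 1.36 (95% interval 1.26 to 1.47) and 1.49 (1.40 to 1.57).

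*Hspa1b*, the near twin of *Hspa1a*, showed a steeper step between the stromal groups. Adventitial cells had 45.4 and 46.7 CPM and alveolar cells 18.9 and 15.2. Epithelial cells had 8.44 and 5.86 CPM (8 UMIs in library 2) and immune cells 4.56 and 0.552 (4 UMIs and 1 UMI). Endothelial cells had 33.5 CPM from 4 UMIs in library 1 and 6.49 CPM from 12 UMIs in library 2, a spread that overlapped the alveolar values. In order of mean level, adventitial cells (46.0 ± 0.965 CPM) stood above endothelial (20 ± 19.1) and alveolar cells (17.1 ± 2.59), and these above epithelial (7.15 ± 1.82) and then immune cells (2.56 ± 2.84). The place of endothelial cells rests on the 4 UMIs of library 1, and their values overlapped the epithelial ones too. *Hspa1b* was higher in adventitial than in alveolar cells by 1.48 ± 0.23 on the log2 scale (edgeR adjusted p 0.000315), a 2.79-fold difference seen in 2 of 2 libraries, with ratios of 2.40 (2.06 to 2.79) and 3.07 (2.72 to 3.45). The call ended with DESeq2 (adjusted p 0.0601) and without the library block (edgeR adjusted p 0.165). In immune cells it was lower by the same test, at -2.85 ± 0.57 (edgeR adjusted p 0.000382), in 2 of 2 libraries. That immune value comes from 5 UMIs, moved to -1.80 without library 2 and to -4.56 without library 1, and was -4.42 in cells with no UMI of another class's markers. The library 2 ratio from 1 UMI was 0.0362 with an interval of 0.000915 to 0.202. The endothelial difference of -1.03 ± 0.45 (edgeR adjusted p 0.0930) and the epithelial difference of -0.63 ± 0.31 (edgeR adjusted p 0.0933) did not pass, and the endothelial one turned to 0.38 without library 2.

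*Dnajb1* encodes the HSP40 partner that hands unfolded proteins to HSP70. In library 1 it was at 233 CPM in adventitial, 206 in alveolar and 184 in endothelial cells, and in library 2 at 134, 104 and 71.4 CPM. Epithelial cells had 60.2 and 34.4 CPM and immune cells 57.0 and 32.0. Each group had less in library 2, so that the first 3 groups overlapped in level and stood apart from epithelial and immune cells, which overlapped each other. Within each library the order of the 5 groups was the same. By edgeR, *Dnajb1* was lower than in alveolar cells in the epithelial group (-1.14 ± 0.19, adjusted p 6.69e-05), the immune group (-1.50 ± 0.20, adjusted p 6.87e-06) and the endothelial group (-0.67 ± 0.21, adjusted p 0.0194), in 2 of 2 libraries each. The endothelial call ended with UMI totals and no scaling factor (-0.44, edgeR adjusted p 0.124) and without the library block (edgeR adjusted p 0.376). The epithelial call ended without the library block (edgeR adjusted p 0.117). In endothelial cells of library 1 (22 UMIs) the interval of the ratio, 0.560 to 1.36, took in 1. The adventitial difference was 0.30 ± 0.17 (edgeR adjusted p 0.401).

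*Hsph1*, an HSP110 protein that recharges HSP70 with nucleotide, was the scarcest inducible gene in alveolar and adventitial cells of library 1. It was at 14.1 and 30.3 CPM in adventitial and 14.0 and 39.0 in alveolar cells. Epithelial cells had 6.24 and 8.06 CPM and immune cells 5.70 (5 UMIs) and 11.6. In endothelial cells it had 0 UMIs in library 1, where 3 UMIs would have made 25.1 CPM, and 13.0 CPM from 24 UMIs in library 2. The stromal groups overlapped each other and stood apart from the other 3, which overlapped. *Hsph1* was lower than in alveolar cells by edgeR in endothelial (-1.66 ± 0.38, adjusted p 0.00218), epithelial (-0.999 ± 0.28, adjusted p 0.00691) and immune cells (-1.32 ± 0.36, adjusted p 0.00459), in 2 of 2 libraries each. Each of these calls ended without the library block (edgeR adjusted p 0.155, 0.0795 and 0.118). The epithelial call also ended with DESeq2 (adjusted p 0.0556). At the depth of endothelial library 1 the 0 was not distinguishable from the alveolar level. The epithelial value was -1.88 without library 1. In adventitial cells the difference was -0.18 ± 0.23 (edgeR adjusted p 0.770).

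**Figure D1:**
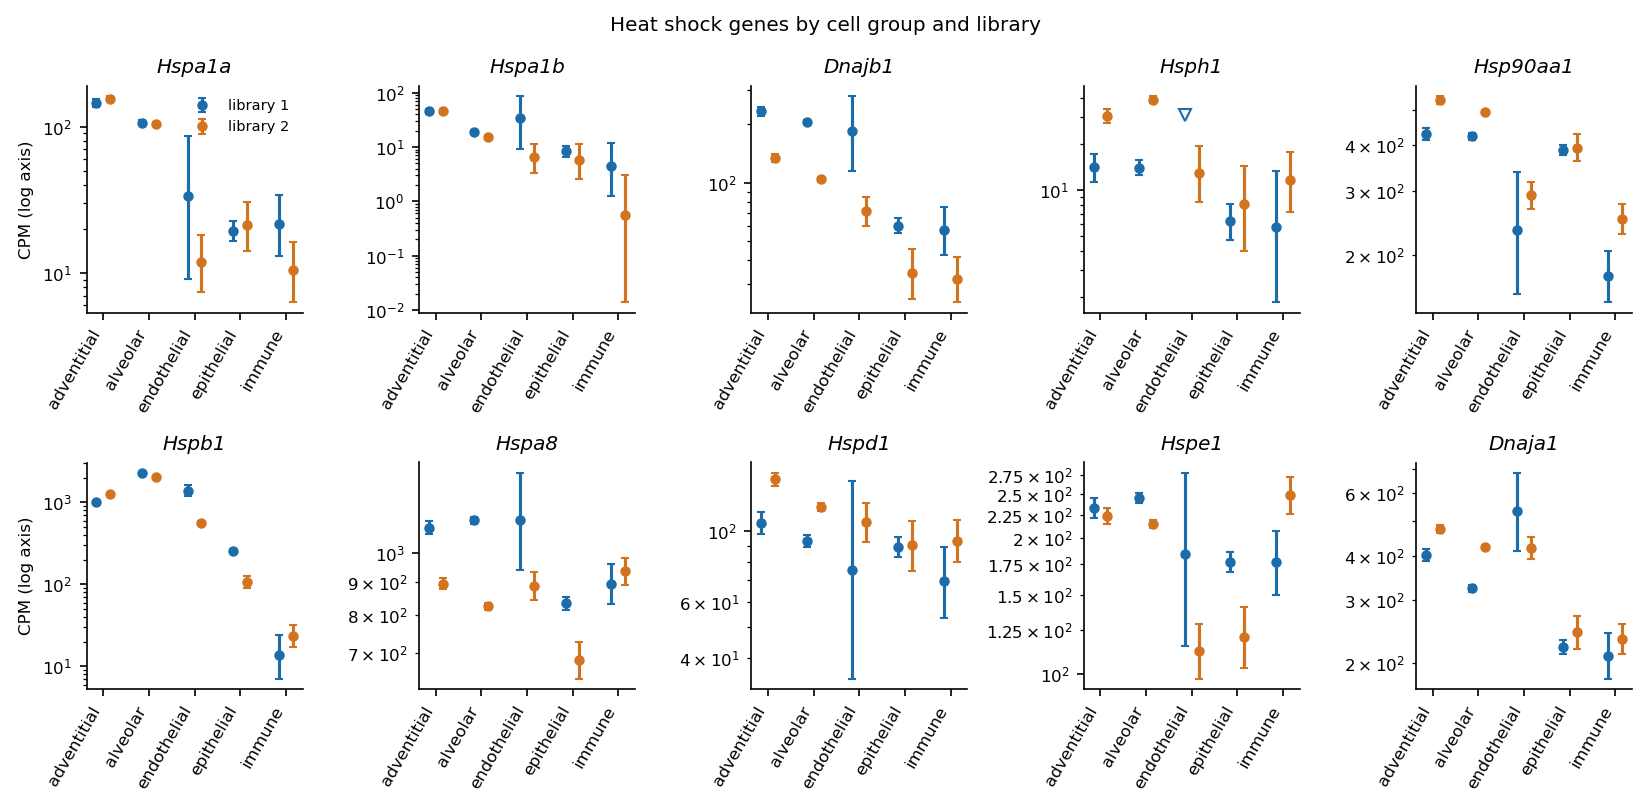
Level of each of the 10 genes in CPM (log axis) by cell group in library 1 and library 2, with bars for the exact Poisson 95% interval; the open triangle is the upper bound for *Hsph1* in endothelial cells of library 1, where it had 0 UMIs. *Hspa1a* lies at 103 to 154 CPM in both stromal groups and at 10.5 to 33.5 CPM in the other groups, while *Hspa8* stays between 682 and 1122 CPM in all 5.

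*Hspb1* is a small heat shock protein that holds unfolding proteins and binds actin filaments. Its range of mean level was the widest among those of the 10 genes with a stated range, which leaves out *Hspa1b* and *Hsph1*. *Hspb1* was at 2278 and 2056 CPM in alveolar and 1020.2 and 1262 in adventitial cells. Endothelial cells had 1389 and 561 CPM, epithelial cells 259 and 108, and immune cells 13.7 and 23.7 (12 and 43 UMIs). Mean levels ran from 2167 ± 157 CPM in alveolar cells through adventitial (1141 ± 171) and endothelial (975 ± 586), which overlapped, to epithelial (183 ± 106) and immune cells (18.7 ± 7.10), a range of 116-fold. Relative to alveolar cells *Hspb1* was lower by edgeR in immune cells (-6.45 ± 0.42, adjusted p 5.05e-10), epithelial cells (-3.05 ± 0.34, adjusted p 5.25e-07) and endothelial cells (-1.58 ± 0.33, adjusted p 0.000907), in 2 of 2 libraries each. These were folds of 87.7, 8.28 and 2.99. Without library 2 the immune value was -7.14, and without library 1 the epithelial value was -3.86. The adventitial difference of -0.87 ± 0.31 (edgeR adjusted p 0.106) did not pass, although the ratio was below 1 in both libraries, at 0.448 (0.436 to 0.460) and 0.614 (0.603 to 0.625). Alveolar and adventitial cells therefore ranked oppositely for *Hspb1* and for *Hspa1b* in both libraries.

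*Hsp90aa1*, the inducible HSP90 that matures kinases and receptors, varied less. It was at 431 and 533 CPM in adventitial, 423 and 494 in alveolar and 388 and 394 in epithelial cells. Endothelial cells had 234 and 291 CPM and immune cells 174 and 251. The stromal groups overlapped, epithelial cells lay below them without overlap, and endothelial and immune cells overlapped at the bottom. By edgeR, *Hsp90aa1* was lower than in alveolar cells in the endothelial group (-1.03 ± 0.22, adjusted p 0.00130) and the immune group (-0.84 ± 0.21, adjusted p 0.00257), in 2 of 2 libraries each. Neither the adventitial (0.09 ± 0.20, edgeR adjusted p 0.877) nor the epithelial difference (0.34 ± 0.20, edgeR adjusted p 0.185) passed. The sign of the epithelial difference depended on the scaling, as it was -0.22 with UMI totals and no scaling factor. With DESeq2 it was 0.43 and called higher (adjusted p 0.00148).

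The constitutive genes were flatter across the groups than *Hspa1a*, *Dnajb1* and *Hspb1*. *Hspa8*, the HSP70 that folds new proteins in resting cells, was at 1093 and 895 CPM in adventitial, 1122 and 826 in alveolar and 1121 and 888 in endothelial cells. Immune cells had 895 and 935 CPM and epithelial cells 835 and 682. The first 4 groups overlapped. Epithelial cells had the lowest mean, but their library 1 value lay above the library 2 value of alveolar cells. The range between the highest and lowest mean was 1.32-fold. *Hspd1* and *Hspe1* encode the HSP60 chamber of mitochondria and its lid. *Hspd1* ran from 69.6 to 145 CPM over the 10 sums with every neighbouring pair of groups overlapping, a range of means of 1.54-fold. *Hspe1* was at 246 and 215 CPM in alveolar, 233 and 224 in adventitial, 177 and 249 in immune, 177 and 121 in epithelial and 184 and 113 in endothelial cells, again with neighbours overlapping. *Dnaja1*, a J protein partner of HSP70, was at 535 and 420.4 CPM in endothelial, 402 and 476 in adventitial and 325 and 424 in alveolar cells, and apart from these at 222 and 244 in epithelial and 209.8 and 234 in immune cells. The range of means was 4.12-fold for *Dnajb1*, 9.28-fold for *Hspa1a* and 2.26-fold for *Hsp90aa1*, against 1.32-fold to 2.15-fold for the constitutive genes. Within library 1 and library 2 the range was 4.08-fold and 4.18-fold for *Dnajb1*, 7.45-fold and 14.7-fold for *Hspa1a*, 166-fold and 86.7-fold for *Hspb1*, 2.47-fold and 2.12-fold for *Hsp90aa1*, and 1.34-fold to 2.55-fold and 1.37-fold to 2.21-fold for the constitutive genes, so *Hsp90aa1* lay within the constitutive ranges of each library. No such range is given for *Hsph1* and *Hspa1b*, whose lowest means rest on a library with 0 UMIs and on 5 UMIs. Constitutive relatives outside the 10 genes had ranges of 1.33-fold (*Hspa4*), 1.69-fold (*Dnaja2*), 1.75-fold (*Hsp90ab1*), 2.23-fold (*Hspa9*) and 3.01-fold (*Dnajb6*).

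Fold changes of the constitutive genes depended on the scaling of the sums, so their directions are given with that limit. The edgeR fit scales by TMM factors, which were 0.697 and 0.786 for the epithelial sums and 1.06 and 1.10 for the alveolar ones. With UMI totals and no such factor, chosen after these factors were seen, the median log2 fold change of all genes moved by -0.55 in epithelial, -0.27 in immune and 0.17 in endothelial cells. With RLE factors in edgeR it moved by 0.078, 0.13 and 0.032 in these groups, and with DESeq2, where the model differed as well as the size factors, by 0.14, 0.19 and 0.14. The log2 fold change of *Hspa8* was 0.20 in epithelial cells and turned to -0.35 with UMI totals, was 0.21 in immune cells and turned to -0.064, and was -0.22 in endothelial cells and turned to 0.046. *Hspd1* was at 0.35 in epithelial cells and turned to -0.21 with UMI totals, and at -0.11 in immune cells and turned to 0.031 with DESeq2 and 0.032 with RLE factors. *Hspe1* was at -0.06 in epithelial cells and turned to 0.021 with DESeq2, 0.023 with RLE factors and 0.014 at a mitochondrial limit of 5%, and in immune cells it was at 0.19 and turned to -0.079 with UMI totals. *Dnaja1* was at -0.13 in epithelial and -0.47 ± 0.20 in immune cells (edgeR adjusted p 0.0597) and at 0.05 in endothelial cells, where it turned to -0.0096 with no filter on low counts. *Hsp90aa1* in epithelial cells, at 0.34, turned to -0.22 with UMI totals. The inducible genes and *Hspb1* kept their sign in these 3 comparisons under each of the scaling alternatives.

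Adventitial cells were compared with alveolar cells to ask how the 2 stromal groups differ. *Hspa1b* was higher in adventitial cells and none of the other 9 genes passed the edgeR test at an adjusted p under 0.05. That is 1 of 10 genes against 8.71% of all 13326 genes tested (1161, of which 768 were higher), a share near the background. Of the 10 genes 0 were called lower by edgeR, against 2.95% of all genes, with 1 lower (*Hspb1*) at an unadjusted p under 0.05 and 0 with DESeq2. The median log2 fold change was 0.18 over the 10 genes, 0.42 over the inducible and 0.16 over the constitutive ones, and -0.03 over all genes. The *Hspa1b* call ended with DESeq2 (1.54, adjusted p 0.0601) and without the library block in edgeR (1.46, adjusted p 0.165), in a range from 1.60e-09 to 0.165 over all alternatives. With no filter on low counts *Hspb1* was also called, at -0.88 (edgeR adjusted p 0.000825, range 0.000825 to 0.663), and the sign of *Hspe1* (0.02) turned to -0.0080 with UMI totals.

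Endothelial cells had lower levels of both high basal genes and of most inducible genes than alveolar cells. *Hspa1a*, *Dnajb1*, *Hsph1*, *Hsp90aa1*, *Hspb1* and *Hspe1* were lower, 6 of 10 genes against 18.2% of all genes tested (2429 of 13326), and 0 were higher by edgeR at an adjusted or unadjusted p under 0.05 or with DESeq2. Genes called in either direction made up 33% of all genes in this comparison, and the count lay above both shares. *Hspe1*, the lid of the HSP60 chamber, was the 1 constitutive gene among them, at -1.01 ± 0.26 (edgeR adjusted p 0.00527) and lower in 2 of 2 libraries, with a library 1 ratio of 0.749 (0.469 to 1.14) from 22 UMIs. The median was -1.35 over the inducible genes, -0.29 over the constitutive genes and -0.18 over all genes. The *Dnajb1* call ended with UMI totals (-0.44, edgeR adjusted p 0.124, range 0.00430 to 0.376). Without the library block the calls of *Dnajb1* (adjusted p 0.376), *Hsph1* (0.155, range 4.43e-05 to 0.155) and *Hspe1* (0.0543, range 0.000231 to 0.0543) ended, and with no filter on low counts *Hspa1b* gained a call (-1.09, edgeR adjusted p 0.0433, range 0.0433 to 0.496).

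Epithelial cells had lower levels of *Hspa1a*, *Dnajb1*, *Hsph1* and *Hspb1* than alveolar cells. These 4 of 10 genes compare with 26.8% of all genes tested that were lower (3565 of 13326) and 51.1% called in either direction, so the count lay above the first share and below the other. By edgeR 0 of the 10 were higher at an adjusted or unadjusted p under 0.05, and 2 with DESeq2, and none of the constitutive genes was called. The median was -1.07 over the inducible genes, 0.07 over the constitutive genes and -0.11 over all genes. *Sftpc* alone made up a large part of the epithelial UMIs, as its CPM above shows, and the same 4 genes were called when surfactant genes and *Scgb1a1* were left out of the counts, an alternative chosen after the data were seen. *Hspa1b* gained a call with UMI totals (-1.20, edgeR adjusted p 0.00357, range 0.00357 to 0.398), with alveolar cells of *Dcn* under 3 UMIs (-0.75, adjusted p 0.0498) and with no filter on low counts (-0.70, adjusted p 0.0416). *Hspe1* (-0.62, edgeR adjusted p 0.0244, range 0.0244 to 0.971) and *Dnaja1* (-0.68, adjusted p 0.00538, range 0.00538 to 0.908) gained calls with UMI totals, and with DESeq2 *Hsp90aa1* (0.43, adjusted p 0.00148, range 0.00148 to 0.438) and *Hspd1* (0.45, adjusted p 0.0171, range 0.0171 to 0.443) were called higher. The *Hsph1* call ended with DESeq2 (adjusted p 0.0556, range 0.000129 to 0.0795), and without the library block the *Dnajb1* call ended too (adjusted p 0.117, range 3.66e-10 to 0.117).

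Immune cells had lower levels of all 4 inducible genes and both high basal genes than alveolar cells. These 6 of 10 genes compare with 28.3% of all genes tested that were lower (3771 of 13326) and with 52.5% called in either direction, so the count lay above the first share and near the other. By edgeR 0 were higher at an adjusted or unadjusted p under 0.05, and 1 with DESeq2. The median was -2.03 over the inducible genes, 0.04 over the constitutive genes and -0.18 over all genes, and none of the constitutive genes was called. The *Hsph1* call ended without the library block (-1.26, edgeR adjusted p 0.118, range 0.000251 to 0.118). *Dnaja1* was called lower with UMI totals (-0.75, adjusted p 0.00360, range 0.00360 to 0.189), with alveolar cells of *Dcn* under 3 UMIs (-0.50, adjusted p 0.0428) and with no filter (-0.57, adjusted p 0.0343), while *Hspa8* was called higher with DESeq2 (0.35, adjusted p 0.0169, range 0.0169 to 0.824).

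Over all 5 groups in 1 edgeR test, 8 of the 10 genes differed between groups, against 74% of all genes tested (9867 of 13326), so the count is near the background. *Hspa8* (adjusted p 0.292, range of means 1.32-fold) and *Hspd1* (adjusted p 0.0545, 1.54-fold) did not pass this edgeR test. With DESeq2 all 10 genes were called, and *Hspd1* was also called with UMI totals, with RLE factors, at a class marker sum of at least 5 and at a mitochondrial limit of 5%. The call of *Dnaja1* ended with RLE factors, and those of *Hsph1*, *Hspe1* and *Dnaja1* ended without the library block. The smallest adjusted p of the 10 genes in that edgeR test was that of *Hspb1*, 1.49e-09, followed by *Hspa1a* with 2.78e-09. The 4 comparisons share the alveolar sums, so they are not independent of each other, and no difference between them was tested.

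**Figure D2:**
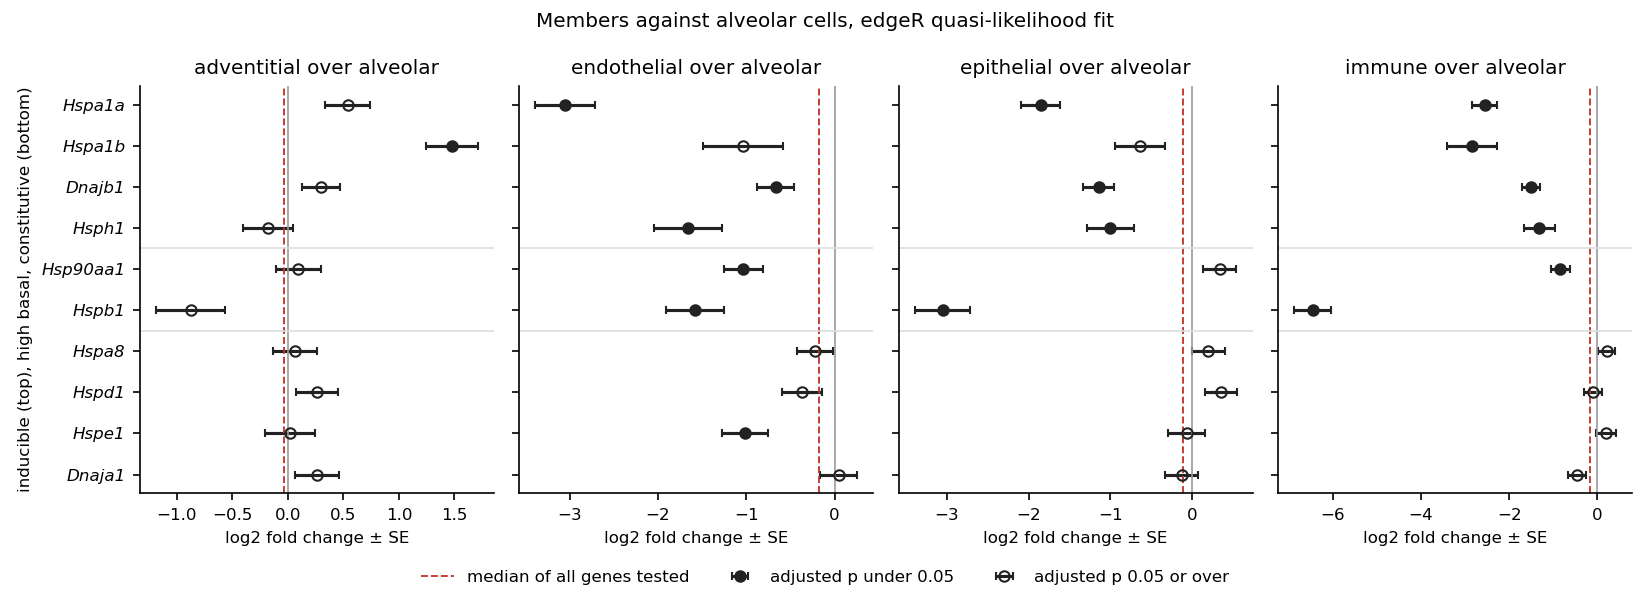
Log2 fold change against alveolar cells from the edgeR fit for each gene and comparison, with bars for the SE, filled points for an adjusted p under 0.05 and a dashed line at the median of all 13326 genes. The inducible genes and *Hspb1* lie left of 0 in the endothelial, epithelial and immune panels, where *Hspb1* reaches -6.45, while *Hspa8* stays between -0.22 and 0.21 with a sign that depends on the scaling.

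A ratio of UMIs within the same cells does not depend on the scaling of the sums, so the 4 inducible genes were also set against the 4 constitutive genes. Adventitial cells had 23.8 inducible UMIs per 100 constitutive UMIs in library 1 (95% interval 22.9 to 24.8) and 20.9 in library 2 (20.3 to 21.6). Alveolar cells had 19.3 (18.8 to 19.8) and 16.5 (16.2 to 16.9). Endothelial cells had 13.1 (8.64 to 19.2) and 6.73 (5.78 to 7.80). Epithelial cells had 7.13 (6.63 to 7.65) and 6.12 (4.92 to 7.53), and immune cells 6.58 (5.17 to 8.28) and 3.61 (2.93 to 4.42). In each library the order was adventitial, alveolar, endothelial, epithelial and immune, but not every step was resolved. The intervals of alveolar and endothelial cells and those of epithelial and immune cells overlapped in library 1, and those of endothelial and epithelial cells overlapped in library 2. The log2 ratio to alveolar cells was 0.32 ± 0.03 (SD, n = 2 libraries) in adventitial, -0.93 ± 0.52 in endothelial, -1.43 ± 0.00286 in epithelial and -1.87 ± 0.45 in immune cells, with no test. *Hspa1a* and *Hspa1b* over *Hspa8*, the inducible against the constitutive HSP70, gave the same order of stromal above other groups: 17.4 and 22.4 per 100 in adventitial, 11.1 and 14.4 in alveolar, 5.97 and 2.07 in endothelial, 3.34 and 3.97 in epithelial and 2.93 and 1.18 in immune cells. *Hsp90aa1* over *Hsp90ab1*, the inducible against the constitutive HSP90, behaved differently. It was 35.4 and 54.0 per 100 in alveolar, 31.0 and 47.2 in adventitial and 35.1 and 56.2 in epithelial cells, against 12.8 and 21.7 in endothelial and 16.1 and 21.3 in immune cells. Epithelial cells thus sat beside the alveolar cells for the HSP90 pair and below both stromal groups for the HSP70 pair. For the HSP70 pair the epithelial and immune intervals overlapped in library 1 (2.92 to 3.79 and 1.85 to 4.43) and lay apart in library 2 (2.78 to 5.52 and 0.718 to 1.83). The adventitial group was above the alveolar one for the HSP70 pair and below it for the HSP90 pair.

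**Figure D3:**
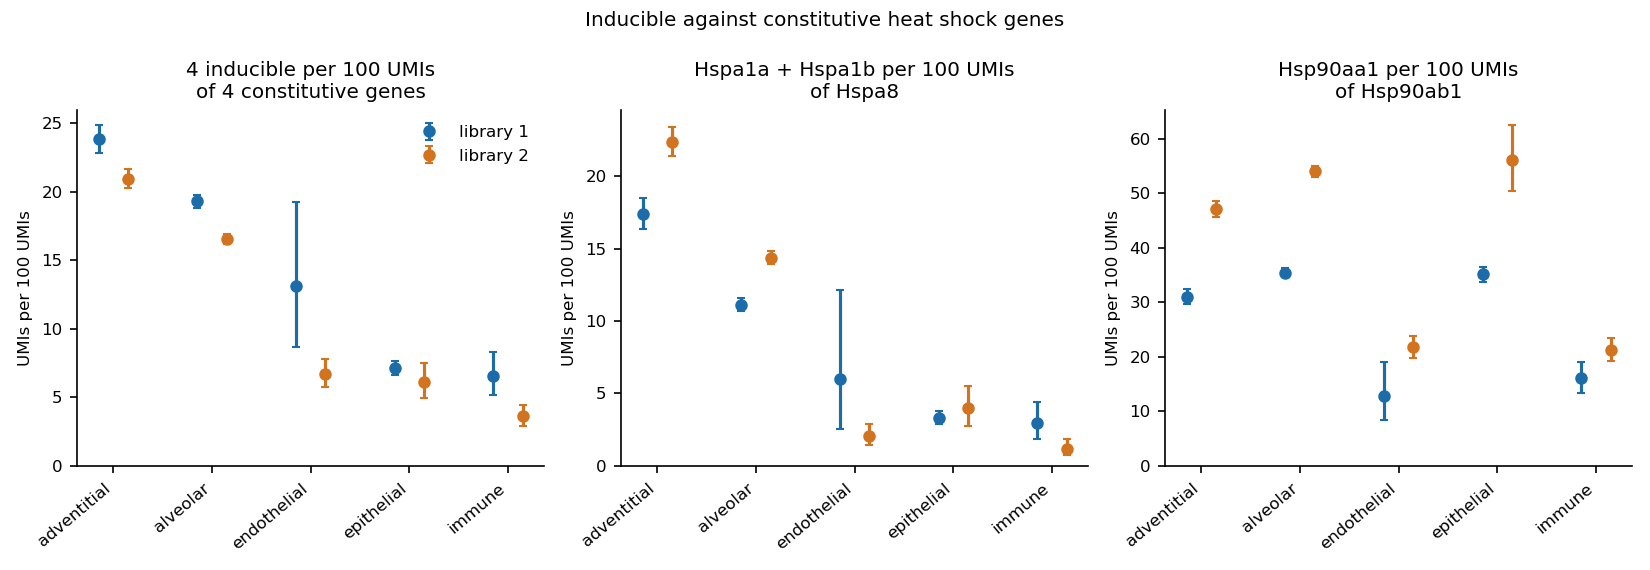
UMIs of the first named genes per 100 UMIs of the second, by cell group and library, with bars for the exact 95% interval; the panels show inducible over constitutive genes, *Hspa1a* and *Hspa1b* over *Hspa8*, and *Hsp90aa1* over *Hsp90ab1*. Epithelial cells are at 7.13 and 6.12 in the first panel, below alveolar cells at 19.3 and 16.5, and at 35.1 and 56.2 in the last, beside alveolar cells at 35.4 and 54.0.

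The libraries differed from each other gene by gene, and since each occasion gave 1 library these ratios have no test. *Dnajb1* was below its library 1 level in every group, at 0.575 in adventitial (95% interval for counting error 0.535 to 0.618), 0.506 in alveolar (0.485 to 0.528), 0.388 in endothelial, 0.572 in epithelial and 0.561 in immune cells. *Hsph1* went the other way, at 2.16 (1.70 to 2.75) in adventitial and 2.77 (2.46 to 3.14) in alveolar cells. *Hspa1a*, by contrast, was at 1.06 (0.979 to 1.15) and 0.974 (0.926 to 1.02) in these 2 groups, so the inducible genes did not move together between the occasions. *Hspa8* was at 0.819 in adventitial and 0.736 in alveolar cells and 1.05 in immune cells. Among relatives outside the 10 genes, *Hspa4* was at 1.70 and 1.92 and *Hsp90ab1* at 0.814 and 0.765 in adventitial and alveolar cells. The stromal cells with 1 or 2 UMIs of *Dcn*, which neither group holds, had 0.522 for *Dnajb1*, 2.76 for *Hsph1* and 1.10 for *Hspa1a*. Past 2-fold in either direction was 1 of the 10 genes in adventitial cells (*Hsph1*), against 17% of all genes tested there, and 1 in alveolar cells (*Hsph1*), against 14%. It was 5 in endothelial cells (*Hspa1a*, *Hspa1b*, *Dnajb1*, *Hsph1* and *Hspb1*), against 45.6%, where library 1 had 56 cells. Of these, the interval of *Hspa1a* (0.121 to 1.42, from 4 UMIs in library 1) and that of *Hsph1* (from 0.389 with no upper bound, over 0 UMIs) took in 1. It was 1 in epithelial cells (*Hspb1*, 0.419, interval 0.352 to 0.495), against 21.6%, and 3 in immune cells (*Hspa1a*, *Hspa1b* and *Hsph1*), against 31.5%, where the intervals of *Hspa1b* (0.00246 to 1.22) and *Hsph1* (0.746 to 6.90) took in 1. Each count was near its background share. The mitochondrial share and the depth per cell were also higher in library 2, and their part in the library differences was not tested.

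**Figure D4:**
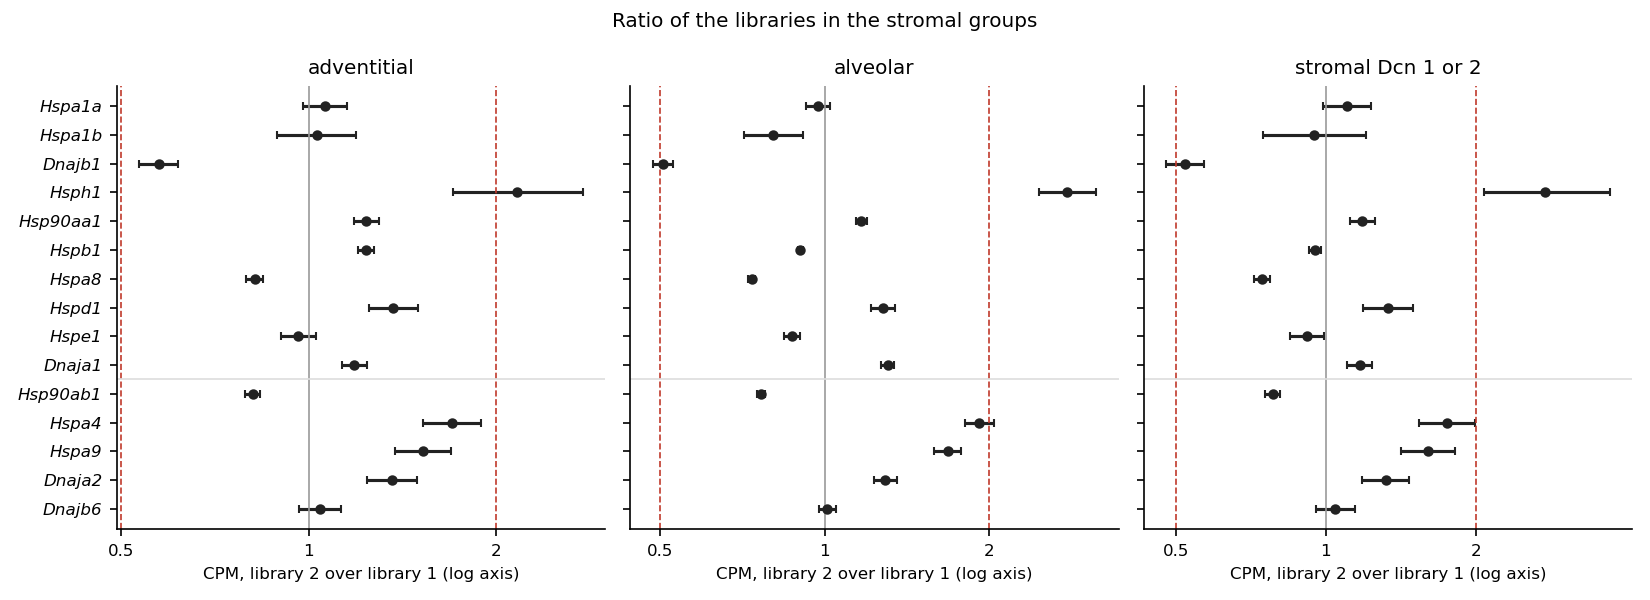
Ratio of library 2 to library 1 in CPM (log axis) for each gene in adventitial cells, alveolar cells and stromal cells with 1 or 2 UMIs of *Dcn*, with bars for the exact 95% interval and dashed lines at 2-fold. *Dnajb1* lies at 0.506 to 0.575 and *Hsph1* at 2.16 to 2.77 in all 3 stromal groups, while *Hspa1a* lies at 0.974 to 1.10.

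To give the share of cells with a transcript, each cell was thinned to 2000 UMIs so that depth did not set the share, and shallower cells were left out (735 alveolar cells in library 1 and 41 in library 2, 30 and 48 endothelial, 81 and 24 immune, 17 and 0 adventitial, 6 and 0 epithelial). *Hspa1a* was then found in 20.4% and 21.0% of adventitial cells and 13.9% and 12.9% of alveolar cells. In endothelial cells it was found in 7.69% (2 of 26 cells, 95% interval 0.946% to 25.1%) and 2.88% (9 of 312), in epithelial cells in 3.90% (36 of 924) and 2.97% (3 of 101), and in immune cells in 2.16% and 1.29% (4 cells in each library). Before thinning the *Hspa1a* shares were 38.5% and 56.5% in adventitial, 20.8% and 28.4% in alveolar, 5.36% and 5.56% in endothelial, 11.2% and 11.9% in epithelial and 5.26% and 2.99% in immune cells. *Hspa8* was found in 85.4% and 77.2% of thinned alveolar and 82.2% and 73.5% of thinned immune cells. *Hspb1* was found in 91.5% and 83.1% of thinned alveolar cells and in 1.08% and 6.77% of immune cells. No cell type of the lung is known to lack these genes, so no group serves as a blank for free RNA, and low shares such as those of *Hspa1a* in immune cells cannot be read as expression by those cells. The 10% of alveolar cells richest in *Hspa1a* held 81.8% and 84.9% of its UMIs, and 1 cell reached 15 of 2000 UMIs in library 1. For *Dnajb1* the richest 10% held 73.2% and 83.3%, for *Hspd1* 63.8% and 53.5%, for *Hspe1* 42.1% and 43.4%, for *Dnaja1* 41.5% and 34.2%, for *Hsp90aa1* 33.9% and 33.3%, for *Hspb1* 32.7% and 35.1% and for *Hspa8* 25.8% and 28.4%. For *Hspa1b* and *Hsph1* it was 100%, as fewer than 10% of cells held a UMI. Scarce genes fill fewer cells at a given depth, so these shares describe counts, are not comparable between genes and do not show whether cells differ in content.

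Stromal cells with a UMI of *Hspa1a* after thinning were set beside those without, by the summed level of other genes in the same thinned cells. Among alveolar cells these were 707 and 4363 cells in library 1 and 710 and 4794 in library 2. *Dnajb1* was 1.61 times as high in alveolar cells with *Hspa1a* in library 1 (95% interval for counting error 1.45 to 1.80) and 1.35 times in library 2 (1.14 to 1.59), while the median gene of at least 50 CPM was at 0.988 and 0.995. That ratio was above those of 99.9% and 99.5% of these genes. *Hspb1* was at 1.07 (1.03 to 1.11) and 1.20 (1.16 to 1.25), above 80.8% and 96.6% of them, and *Hspa8* at 1.04 (0.988 to 1.10) and 1.05 (0.990 to 1.12). *Dnajb1* was thus more abundant in *Hspa1a*-positive alveolar cells in both libraries. The *Hspb1* ratio was above 1 in both but less set apart from other genes, and the *Hspa8* intervals took in 1. *Dnaja1*, at 1.16 (1.06 to 1.28) and 1.03 (0.941 to 1.12), and *Hsp90aa1*, at 1.13 (1.04 to 1.22) and 1.05 (0.970 to 1.14), were above 1 beyond counting error in library 1 only, and the intervals of *Hspd1* and *Hspe1* took in 1 in both. *Hspa1b* was at 1.22 (0.801 to 1.80) and 1.49 (0.947 to 2.28), and *Hsph1* at 1.39 (0.890 to 2.11) and 1.01 (0.751 to 1.35), which the counts could not tell from 1. The immediate early genes, looked at after these values were seen, were also more abundant in those cells: *Fos* at 1.47 and 1.46, *Jun* at 1.46 and 1.40, *Egr1* at 1.32 and 1.30 and *Atf3* at 1.51 and 1.61. In adventitial cells (204 and 796 in library 1, 210 and 788 in library 2) *Dnajb1* was at 1.36 (1.09 to 1.69) and 0.997 (0.717 to 1.36), so the relation was seen in 1 of 2 libraries. There *Hspa1b* was at 0.743 (0.365 to 1.39) and 0.977 (0.557 to 1.64), and *Hsph1* at 0.156 (0.00380 to 0.953, from 1 UMI in the cells with *Hspa1a*) and 0.991 (0.508 to 1.81), so neither was above 1. *Hspb1* ran the other way there, at 0.742 (0.656 to 0.837) and 0.822 (0.739 to 0.914), above 7.15% and 13.8% of the genes of at least 50 CPM. Of the immediate early genes in adventitial cells, *Fos* was at 1.31 and 1.34, *Jun* at 1.33 and 1.18, *Egr1* at 1.24 and 1.09 and *Atf3* at 1.38 and 1.58. These ratios lay above those of 88.3% (*Egr1*) to 96.2% (*Atf3*) of such genes in library 1. In library 2 they lay above 71.2% (*Egr1*) to 99.3% (*Atf3*). Cells of a library share their source, so these values have no test.

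**Figure D5:**
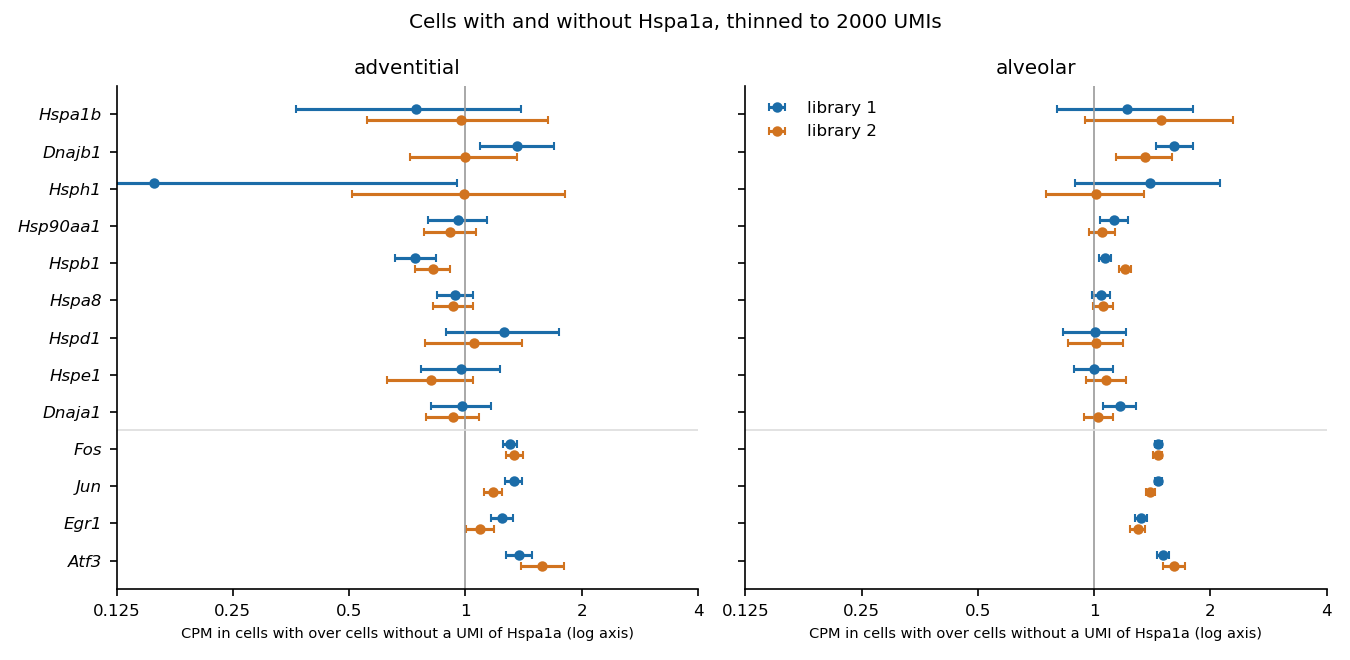
Level of each gene in cells with a UMI of *Hspa1a* over that in cells without, after thinning to 2000 UMIs, in alveolar and adventitial cells of each library (log axis), with bars for the exact 95% interval; the *Hsph1* bar of adventitial library 1 runs past the left edge, to 0.00380. *Dnajb1* lies at 1.61 and 1.35 in alveolar cells, and *Hspb1* lies above 1 in alveolar cells (1.07 and 1.20) and below 1 in adventitial cells (0.742 and 0.822).

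In alveolar cells the summed level of the inducible genes also moved with the depth and the mitochondrial share of a cell. Alveolar cells of each library were split into 3 groups of about equal size by UMI total and by mitochondrial share. From the group with the fewest UMIs to that with the most, the summed level of the inducible genes was 210.4, 348 and 391.7 CPM in library 1 and 208, 252 and 292 CPM in library 2. From the lowest to the highest mitochondrial share it was 416, 347 and 251 CPM in library 1 and 294, 272 and 216 CPM in library 2. Alveolar cells that were deep or low in mitochondrial UMIs thus held more inducible transcripts in both libraries. Adventitial cells gave 497, 432 and 377 CPM and 410.1, 373 and 304 CPM from the lowest to the highest mitochondrial share. The constitutive genes moved less, at 1898, 1790.3 and 1638 CPM and 1628, 1610 and 1505 CPM in alveolar cells over the same groups. *Hspb1* in alveolar cells was at 2478, 2329 and 1957 CPM and 2423, 2084 and 1645 CPM over them. In alveolar cells of library 1 *Hspa1a* and *Hspa1b* together were at 93.5, 145 and 123 CPM from the fewest to the most UMIs. Epithelial cells of library 1 did not show the same order, with an inducible sum of 99.9, 107 and 82.0 CPM by UMI total. By mitochondrial share that sum was 98.3, 81.6 and 104 CPM in epithelial and 92.9, 86.5 and 88.5 CPM in immune cells of library 1. Depth and mitochondrial share differ between the groups as well, and their part in the differences between groups was not tested.

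Subgroups of the epithelial, endothelial and immune classes with at least 50 cells in a library are described with no test. Type 2 pneumocyte-like cells (*Lamp3*, *Abca3* and *Slc34a2*, 821 and 76 cells) had *Hspa1a* at 18.2 and 26.2 CPM, *Dnajb1* at 61.4 and 26.2 and *Hspb1* at 258 and 96.3. General capillary-like cells (*Gpihbp1*, *Plvap* and *Aplnr*, 215 cells in library 2) had *Hspa1a* at 13.3 CPM, *Dnajb1* at 79.6, *Hspb1* at 267 and *Hspa8* at 869.5. The *Hspb1* level of these capillary-like cells was below the 561 CPM of all endothelial cells in that library. In library 2, T cell-like cells (64 cells) had 2 UMIs of *Hspa1a*, B cell-like cells (62) had 0 and alveolar macrophage-like cells (50) had 0, where 3 UMIs would have made 7.58 CPM in the last. *Dnajb1* was at 45.8 CPM (25.6 to 75.5) in T cell-like, 43.8 (20.1 to 83.2) in B cell-like and 7.58 (1.56 to 22.2, from 3 UMIs) in alveolar macrophage-like cells. These intervals cover counting error in 1 library only, and that of B cell-like cells overlapped both others. *Dnaja1* was at 409 CPM (343 to 485) in T cell-like cells, 156 (107 to 220.1) in B cell-like and 157 (120.1 to 201) in alveolar macrophage-like cells. *Hspe1* was at 357 CPM (295 to 428) in T cell-like cells against 239 (177 to 316) in B cell-like and 184 (145 to 232) in alveolar macrophage-like cells, with overlap between T and B cell-like cells. *Hspd1* was at 110 CPM (77.0 to 152), 117 (74.9 to 174) and 96.0 (67.9 to 132) in the same order, and its intervals all overlapped. *Hspa8* was at 916 (815 to 1026), 599 (498 to 715) and 970 (876 to 1072) CPM. Immune cells with at least 10 UMIs of *S100a8* and *S100a9* (54 cells in library 1, with a median of 1474 UMIs) had *Hspa8* at 86.6 CPM (34.8 to 179) from 7 UMIs and *Dnaja1* at 470.3 (333 to 646) from 38 UMIs. That *Hspa8* level is set beside the 895 CPM of all immune cells of that library. *Hspa1a* had 0 UMIs in these cells and *Dnajb1* was at 124 CPM (59.4 to 228) from 10 UMIs, against 57.0 CPM in all immune cells there.

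Related genes from fixed lists were counted in the same edgeR fits, and their directions in epithelial, immune and endothelial cells carry the shifts of the median given above. In adventitial, endothelial, epithelial and immune cells, 5.76%, 14.8%, 24.4% and 24.2% of all genes tested were higher and 2.95%, 18.2%, 26.8% and 28.3% were lower. With UMI totals 5.55%, 17.9%, 15.7% and 20.3% were higher and 3.28%, 14.9%, 47.3% and 36.4% lower, and with DESeq2 2.80%, 14.0%, 22.3% and 24.2% higher and 1.10%, 13.9%, 20.2% and 20.9% lower. The heat shock factors *Hsf1*, *Hsf2* and *Hsf4* had 1 of 3 lower in adventitial, 1 in endothelial, 2 in epithelial and 1 in immune cells, and 0 higher by edgeR at an adjusted or unadjusted p under 0.05 or with DESeq2. The number lower became 3 in epithelial and 2 in immune cells with UMI totals and 1 in epithelial cells with DESeq2. *Hsf1*, the main factor of the response, was at 22.7 and 23.3 CPM in alveolar and 10.3 and 8.79 in epithelial cells, a difference of -0.61 ± 0.25 (edgeR adjusted p 0.0464), lower in 2 of 2 libraries, and the call ended with DESeq2 (adjusted p 0.182). *Hsf4* was at 35.8 and 19.7 CPM in alveolar and 1.14 and 1.10 in immune cells (1 UMI and 2 UMIs). Other HSP70 and HSP110 genes (10 tested of 11) had 1 higher in adventitial cells, 2 higher and 5 lower in endothelial, 2 and 3 in epithelial and 0 and 4 in immune cells (1 higher at an unadjusted p under 0.05, 1 with DESeq2). With UMI totals these became 2 higher and 4 lower in endothelial, 1 and 5 in epithelial and 0 and 5 in immune cells, and with DESeq2 2 and 3, 1 and 2, and 1 and 3. *Hspa12a*, an atypical HSP70, was higher in endothelial cells, at 16.7 and 18.4 CPM against 0.853 and 0.954 in alveolar cells (4.13 ± 0.52, edgeR adjusted p 4.95e-06, higher in 2 of 2 libraries), where the library 1 level comes from 2 UMIs and that of library 2 from 34. *Hspa12b* was at 33.5 (4 UMIs) and 108 CPM in endothelial and 2.09 and 1.65 in alveolar cells and was listed at 0 in epithelial cells. *Hspa13* was lower in immune cells, at 7.98 and 14.9 CPM against 66.5 and 63.0 (-2.14 ± 0.27, edgeR adjusted p 3.16e-06), in 2 of 2 libraries. The other HSP90 genes (3) had 1 higher in epithelial and 1 lower in immune cells, and 0 called in adventitial and endothelial cells, also at an unadjusted p under 0.05 and with DESeq2. With UMI totals 1 was higher in endothelial cells, 1 higher and 1 lower in epithelial and 2 lower in immune cells, and with DESeq2 1 was higher and 1 lower in immune cells. *Trap1*, the mitochondrial HSP90, was at 49.2 and 45.4 CPM in epithelial against 28.7 and 20.9 in alveolar cells (1.48 ± 0.20, edgeR adjusted p 5.18e-06, higher in 2 of 2 libraries). *Hsp90b1*, which folds proteins of the endoplasmic reticulum, was at 372 and 397 CPM in immune against 878 and 729 in alveolar cells (-0.78 ± 0.20, edgeR adjusted p 0.00322, lower in 2 of 2 libraries).

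Among 15 other J proteins, the partners of HSP70, 0 were called in adventitial cells (1 higher and 2 lower at an unadjusted p under 0.05, 0 with DESeq2), 4 lower in endothelial, 2 higher and 4 lower in epithelial and 2 higher and 7 lower in immune cells. That compares with 18.2%, 26.8% and 28.3% of all genes lower in the last 3. With UMI totals the J proteins had 1 higher and 3 lower, 0 and 8, and 2 and 9 in these groups, against 14.9%, 47.3% and 36.4% of all genes lower, and with DESeq2 0 and 3, 2 and 3, and 2 and 6. The medians were -0.15, -0.42, -0.02 and -0.59, against -0.03, -0.18, -0.11 and -0.18 over all genes. *Dnajb4*, a close relative of *Dnajb1*, was at 174 and 158 CPM in alveolar and 9.12 and 20.4 in immune cells (-3.10 ± 0.27, edgeR adjusted p 2.47e-08, lower in 2 of 2 libraries). *Dnaja4* was at 22.8 and 20.4 CPM in alveolar and 1.14 (1 UMI) and 3.86 in immune cells, and *Dnajb5* at 19.6 and 15.7 CPM in alveolar and 2.54 and 3.66 in epithelial cells. The 6 other small heat shock proteins had 5 lower in endothelial, 1 higher and 3 lower in epithelial and 1 higher and 5 lower in immune cells, with 1 higher in adventitial cells. With UMI totals these were 0 higher and 4 lower in endothelial and epithelial cells, 0 and 5 in immune and 1 and 1 in adventitial cells, and with DESeq2 0 and 3, 1 and 3, 0 and 5, and 0 and 0. *Hspb8*, the partner of *Bag3* in clearing misfolded proteins, was at 33.0 and 57.3 CPM in alveolar and 0 and 1.10 in immune cells. *Hspb2* was at 1.14 and 0.552 CPM in immune cells, 1 UMI in each library, and *Hspb7* was listed at 0 there. No median is given for this list in immune cells because of these counts. Of 18 co-chaperones, 0 were called in adventitial cells (2 higher at an unadjusted p under 0.05, 0 with DESeq2), 1 higher and 2 lower in endothelial, 3 and 6 in epithelial and 0 and 8 in immune cells (1 higher at an unadjusted p under 0.05, 0 with DESeq2). The counts became 2 and 1 in endothelial, 2 and 12 in epithelial and 0 and 12 in immune cells with UMI totals, and 1 and 2, 3 and 4, and 0 and 6 with DESeq2. *Bag3* was at 58.3 and 72.1 CPM in alveolar and 5.70 and 7.17 in immune cells (-3.02 ± 0.44, edgeR adjusted p 1.29e-05, lower in 2 of 2 libraries). *Serpinh1*, the collagen chaperone HSP47, was at 1047 and 434 CPM in alveolar and 13.7 and 3.31 in immune cells (-6.29 ± 0.37, edgeR adjusted p 1.02e-10, lower in 2 of 2 libraries). *Bag2* was at 6.19 and 7.35 CPM in alveolar and 0 and 0.552 in immune cells.

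The CCT chaperonin is a ring that folds actin and tubulin. Its 8 subunits summed to 511 and 569 CPM in epithelial cells, against 900.5 and 913 in alveolar, 813 and 926 in adventitial, 979 and 975 in endothelial and 818 and 916 in immune cells. Of these 8 subunits 0 were called in adventitial and endothelial cells, also at an unadjusted p under 0.05 and with DESeq2. By edgeR 1 was higher and 3 lower in epithelial cells and 2 were higher in immune cells. With UMI totals these became 0 higher and 6 lower in epithelial cells and 0 in immune cells, where DESeq2 called 3 higher. In epithelial cells DESeq2 called 1 higher and 2 lower. The medians were -0.03, -0.11, -0.30 and 0.17 in the order adventitial, endothelial, epithelial and immune. *Tcp1* was at 64.9 and 85.0 CPM in epithelial and 56.1 and 85.2 in alveolar cells (0.66 ± 0.19, edgeR adjusted p 0.00610), higher in CPM in 1 of 2 libraries, and the call ended with UMI totals (0.11, adjusted p 0.595). *Cct6a* was at 44.3 and 48.3 CPM in epithelial against 86.2 and 129 in alveolar cells (-0.59 ± 0.22, edgeR adjusted p 0.0305, lower in 2 of 2 libraries), a call that ended with DESeq2 (adjusted p 0.0814), and *Cct8* at 41.6 and 58.6 CPM against 107 and 107 (-0.59 ± 0.19, edgeR adjusted p 0.0156, lower in 2 of 2 libraries). The unfolded protein response of the endoplasmic reticulum (12 tested of 13) had 1 higher and 6 lower in endothelial, 3 and 4 in epithelial, 1 and 7 in immune and 0 called in adventitial cells (1 higher at an unadjusted p under 0.05, 0 with DESeq2), with medians of -0.73, -0.40, -0.85 and 0.27. With UMI totals the first 3 became 1 higher and 1 lower, 0 and 8, and 0 and 9, and with DESeq2 1 and 3, 2 and 1, and 0 and 5, against shares of lower genes of 18.2%, 26.8% and 28.3% over all genes in the edgeR fit. The direction of this list thus depended on the fit in endothelial and epithelial cells. *Dnajc3* was at 399 and 333 CPM in alveolar and 93.5 and 122 in immune cells (-1.46 ± 0.23, edgeR adjusted p 2.99e-05, lower in 2 of 2 libraries). *Sdf2l1* was at 109 and 32.5 CPM in alveolar and 16.9 and 6.59 in epithelial cells (-1.96 ± 0.29, edgeR adjusted p 1.77e-05, lower in 2 of 2 libraries). *Hyou1* was at 42.3 and 24.3 CPM in alveolar and 33.5 (4 UMIs) and 11.9 in endothelial cells (-1.16 ± 0.37, edgeR adjusted p 0.0212, lower in 2 of 2 libraries), a call that ended with UMI totals (adjusted p 0.0629) and DESeq2 (adjusted p 0.0912).

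The level over the 10 sums was also compared between genes, as a description over sums that share libraries and cells, taking the 3060 genes whose mean reached 50 CPM. The genes whose log2(CPM + 1) followed the mean of the 4 inducible genes most closely were *Cygb* (Pearson r 0.979), *Pcolce* (0.976), *Hcfc1r1* (0.975), *Adh1* (0.970) and *Fbln1* (0.970). Those most like *Hspa8* were *Ppp1r15a* (0.960), *Mrps16* (0.937), *Map2k2* (0.931), *Wsb1* (0.929) and *Sf3b5* (0.922). Of the other heat shock genes, *Hspb1* (0.788) and *Hsp90aa1* (0.730) followed the inducible mean more closely than *Hspd1* (0.653), *Dnaja1* (0.638), *Hspe1* (0.467) and *Hspa8* (0.362). The immediate early genes *Egr1* (0.834) and *Fos* (0.818) followed it more closely than any of these, and *Jun* was at 0.716. Such an r describes a like pattern over the cell groups and is not particular to heat shock genes.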

How the data were processed

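The authors deposited raw counts of UMIs per gene and cell barcode from 10x Genomics 3' libraries, made with Cell Ranger 5.0.1 on mm10 per the labels and not normalized. Cells were filtered and classed as stated above, and UMIs were summed per group and library. The 10 sums were fitted with edgeR 4.0.16 (limma 3.58.1, R 4.3.3) with TMM factors, its default filter on low counts (13326 genes), the library as a block (4 residual degrees of freedom) and the two-sided quasi-likelihood test, adjusted by Benjamini-Hochberg at 0.05. The variance of each gene was moderated over genes, with 13.17 prior degrees of freedom. CPM are unscaled shares of the sum. Intervals are exact (Poisson, Clopper-Pearson or conditional binomial, 95%) and, like the floor of 3 UMIs for a count of 0, cover counting error only. With 2 libraries an SD is known with little precision. Cells were thinned to 2000 UMIs with a fixed seed. Doublet scores came from Scrublet in scanpy 1.11.5, at an expected 7.71% and 7.99%. Other computations used Python 3.11.15, numpy 2.4.6, scipy 1.17.1, pandas 2.3.3 and matplotlib 3.10.9. The fit was tested on simulated data.

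The 10 genes, the roles, the rule and the lists were chosen with earlier results of these data known. From each related list the 3 genes with the largest absolute log2 fold change among those called in any comparison are named. Alternatives covered DESeq2 1.42.0, RLE factors, no filter on low counts, no library block, stricter cell and class limits, alveolar cells of *Dcn* under 3 UMIs, removal of 699 and 732 cells by doublet score and each library left out. Chosen after the data were seen were the alternatives without surfactant genes and *Scgb1a1* and with unscaled UMI totals, the ratios with a library left out, the 90-base stretches, the promoter stretches of 60 bases, the run of 3 units, the motif shares by gene, the ranges within a library, the list counts with DESeq2 and UMI totals, the immediate early genes beside *Hspa1a*, and the names given to genes and cells outside these rules.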

Additional observations from a re-analysis of the deposited data

Results flagged for a closer look

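Among the constitutive genes, *Hspa8* and *Hspe1* moved in opposite directions in the 2 libraries. The ratio of *Hspa8* in adventitial to alveolar cells was 0.974 in library 1 and 1.08 in library 2. In immune over alveolar cells the ratio was 0.798 and 1.13 for *Hspa8* and 0.720 and 1.16 for *Hspe1*. Each lies below 1 in library 1 and above 1 in library 2, with intervals for counting error that do not take in 1. With 1 library on each occasion these differences were not tested. The make-up of the immune group also differed between the libraries. Immune cells with at least 10 UMIs of *S100a8* and *S100a9* numbered 54 in library 1 and 28 in library 2, and T cell-like cells 10 and 64. The former had *Hspa8* at 86.6 CPM in library 1, and the part of this make-up in the ratios was not tested.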

How the results depend on the processing

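Of 480 log2 fold changes of the 10 genes under alternatives with a test, 444 kept their direction and their side of the threshold, 10 lost and 13 gained a call and 13 turned sign. Of 79 with a library left out, which have no test, 27 moved. With DESeq2 the adventitial comparison called 521 genes (1161 in the edgeR fit) and 0 of the 10 genes (1), and the fold change of *Hspe1* in epithelial cells was 0.021 and that of *Hspd1* in immune cells 0.031. RLE factors gave 0.023 and 0.032 for the same values, and the mitochondrial limit of 5% gave 0.014 for *Hspe1* in epithelial cells. With no library block, 254 genes and 0 of the 10 were called in adventitial cells. In endothelial cells 3098 genes (4401 in the edgeR fit) and 3 (6) of the 10 were called. The counts were 2 (4) of the 10 in epithelial cells and 5 (8) over any group, both without a share of all genes. With no filter on low counts 2 of the 10 were called in adventitial cells and *Dnaja1* was at -0.0096 in endothelial cells. With UMI totals 7 of the 10 (4) were called in epithelial cells, all lower, against 47.3% of all genes lower and 15.7% higher. Over both directions 8396 of 13326 genes were called there. In that fit *Hsp90aa1* was at -0.22, *Hspa8* at -0.35 and *Hspd1* at -0.21 in epithelial cells. With the same totals *Hspe1* was at -0.0080 in adventitial cells, *Hspa8* at 0.046 in endothelial cells, and *Hspa8* at -0.064 and *Hspe1* at -0.079 in immune cells. The log2 ratio of inducible to constitutive genes over alveolar cells was, with *Hspa1a* and *Hspa1b* over *Hspa8*, 0.64 in adventitial, -1.85 in endothelial, -1.80 in epithelial and -2.77 in immune cells, and with *Hsp90aa1* over *Hsp90ab1* -0.19 in adventitial, 0.023 in epithelial and -1.24 in immune cells. Leaving out each library gave 0.30 to 0.34, -1.30 to -0.56, -1.44 to -1.43 and -2.19 to -1.55 in the 4 groups in that order. In cells of 2000 to 10000 UMIs, 0 of the 10 (1) were past 2-fold between libraries in adventitial cells, against 17.6% of all genes. The count was 2 (1) in alveolar cells against 14.2%, 6 (5) in endothelial against 52.4% and 2 (3) in immune against 31.8%. It was 4 (1) in epithelial cells against 50.3%, where library 2 had 18 cells and all genes past it went from 2675 to 6041. In cells with no marker of another class 2 of the 10 were past it in epithelial cells, against 27.1%. The causes of these changes were not tested.

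Of the levels in CPM, 86 of 100 values stayed within the spread of the libraries, and of the shares of cells 21 of 100. The alternatives for the shares were thinning to 1000 UMIs and no thinning. Depth itself sets such a share, so that count does not measure how firm the shares are. *Hsph1* in endothelial cells has no value without library 2, as it had 0 UMIs in library 1. With 1 library left out no test can be run. The endothelial sum of library 1 and the epithelial cells of library 2 limit what could be seen there, and mice per library are not known.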

Other observations

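The stromal cells with 1 or 2 UMIs of *Dcn* (823 in library 1 and 895 in library 2), which belonged to neither stromal group, lay between them for the genes that differed most. They had *Hspa1a* at 110.3 and 121 CPM, *Hspa1b* at 25.9 and 24.5 and *Hspb1* at 1793 and 1708. Their inducible genes stood at 20.6 and 18.6 UMIs per 100 constitutive UMIs. Cells that met the rule of more than 1 class (420 and 1640) had 14.4 and 10.9 per 100, and cells of no class (317 and 115) had 11.5 and 15.2.

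Immediate early genes were compared as a list of 13. In adventitial against alveolar cells 0 were called by edgeR (1 higher at an unadjusted p under 0.05, 0 with DESeq2). In endothelial cells 1 was higher and 6 lower, in epithelial cells 0 (also at an unadjusted p under 0.05 and with DESeq2) and 10, and in immune cells 1 and 7, with medians of -0.66, -1.16 and -0.53. Over all genes tested 18.2%, 26.8% and 28.3% were lower in these groups. With UMI totals the counts became 1 higher and 5 lower, 0 and 13, and 0 and 11, against 14.9%, 47.3% and 36.4% of all genes lower, and with DESeq2 1 and 5, 0 and 7, and 0 and 5. *Nr4a1*, a nuclear receptor, was at 563 and 209 CPM in alveolar and 41.8 and 24.3 in endothelial cells (-3.63 ± 0.35, edgeR adjusted p 1.47e-07, lower in 2 of 2 libraries). *Ier3* went the other way, at 439 and 203 CPM in alveolar and 2560 and 1437 in endothelial cells (2.40 ± 0.27, edgeR adjusted p 9.47e-07, higher in 2 of 2 libraries). *Jun* was at 5467 and 3716 CPM in alveolar and 311 and 580.2 in immune cells (-3.04 ± 0.30, edgeR adjusted p 1.11e-07, lower in 2 of 2 libraries). *Atf3* was at 1795 and 534 CPM in alveolar cells and *Fos* at 6832 and 3383, both less in library 2, whereas *Hspa1a* was at 106 and 103.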
